A study of Tachysurus vachellii with 6 samples.

Results

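The miR-30 family was followed in small RNA from extracellular vesicles prepared out of liver tissue of the darkbarbel catfish, Pelteobagrus vachellii, also named Tachysurus vachellii. Its members were taken by name, as every row of the deposited miRNA table whose name after the species prefix is mir-30, whatever its letter, arm or suffix. This gave 23 rows, and after identical sequences were summed it gave 17 entries of 841 in the table. Hypoxic fish were sampled at 4 h in sealed, nitrogen-bubbled water at 1.0 mg/L of dissolved oxygen, and normoxic fish at 4 h in water at 6.8 mg/L. All were bought from a supplier, acclimated and fasted before the experiment, and each group had 3 libraries. The labels do not say whether a library came from 1 fish or from a pool, so the p-values reflect the spread among these libraries and no more, and that spread may be technical. The sample titles name the liver and the protocol names its vesicles.

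A miRNA hairpin is cut into a 5p and a 3p strand, and the strand that is retained guides silencing of mRNAs that pair with its seed, bases 2 to 8. The miR-30 hairpins of vertebrates share 1 seed on the 5p strand, while their 3p strands carry other seeds. In mammals the genes lie in clusters that pair a member of the miR-30a, miR-30d and miR-30e type with a member of the miR-30b and miR-30c type, the types differing in the middle of the 5p strand. In zebrafish and mouse the family is known for its part in the development of bile duct cells of the liver, and in mice miR-30c lowers hepatic lipid synthesis and lipoprotein secretion.

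The 5p sequences are shown because all 7 of them carry the same seed, GTAAACA in the table's T spelling, and differ after it. Each entry is named as deposited, by the first name in the table, and the seed is in capitals.
dre-miR-30c-5p_R+1: tGTAAACAtcctacactctcagc
dre-miR-30b: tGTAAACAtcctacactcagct
dre-miR-30b_3ss19-T20-C24TG: tGTAAACAtcctacactctcagcg
oha-miR-30b-5p_R+1_1ss22TC: tGTAAACAtcctacactcagcct
dre-miR-30e-5p_R+2: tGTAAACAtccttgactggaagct
ccr-miR-30d: tGTAAACAtccccgactggaagc
gmo-miR-30e-5p_1ss13TC: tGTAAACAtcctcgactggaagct

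The first 4 of these lines share their first 18 bases and are called the b/c type here. The other 3 share the stretch gactgg and are called the a/d/e type. The types were read from the sequences, with the values already known. The letters in the names were not a safe guide: the sequence of dre-miR-30c-5p_R+1 was also listed as ssa-miR-30a-5p, and that of dre-miR-30e-5p_R+2 also as ssa-miR-30c-5p. The entry dre-miR-30b_3ss19-T20-C24TG held the whole sequence of dre-miR-30c-5p_R+1 with 1 base more at its 3′ end. Counted from the 5′ end, gmo-miR-30e-5p_1ss13TC differed from dre-miR-30e-5p_R+2 by T13C. Set against ccr-miR-30d the substitution was C12T, with ccr-miR-30d named first, and the gmo entry had 1 base more at its 3′ end. The rule by which reads were shared among sequences this close is unknown, which leaves the value of each one uncertain.

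The 3p sequences are shown for the members that carried most of the 3p counts, which share the seed TTTCAGT, and for a rare pair with seeds of their own.
dre-miR-30e-3p: cTTTCAGTcggatgtttgcagc
gmo-miR-30e-3p_R+2: cTTTCAGTcggatgtttgcagcc
ssa-miR-30d-2-3p_2ss1TC22CT: cTTTCAGTcggatgtttgcagtt
dre-miR-30a-3p_2ss9CT10TG: cTTTCAGTtggatgtttgctgc
ipu-miR-30d_R-1: cTTTCAGTtggatgtttgctg
ssa-miR-30a-4-3p_1ss12GA: cTGGGAGAgggatgtttacgct
ccr-mir-30b-p3_1ss4GA: cTGAGAGGagggtgtttgct

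In all, 9 of the 17 entries were on the 3p strand by sequence, and 6 of these had the seed TTTCAGT. The name of ipu-miR-30d_R-1 gives no arm, but it is dre-miR-30a-3p_2ss9CT10TG with 1 base fewer. The remaining entry, tni-mir-30c-p5_1ss3TG (gGGGGCCGggggtgggac), had neither the 5p seed nor the 3p stretch TGTTTAC or TGTTTGC. It was 18 nt long with a GC content of 88.9%, against 40.9% to 68.2% in the other members. It bears the family's name and is kept in the counts, but its sequence does not resemble a miR-30 strand. No entry outside the family had the 5p seed. Of the 3p seeds, 2 predicted entries outside the family shared 1 each, and both had counts in normoxia replicate 1 alone, 7 for PC-3p-187972_7 and 6 for PC-3p-203140_6. Both resembled members beyond the seed and were left out by name only. PC-3p-187972_7 shared its first 21 bases with dre-miR-30e-3p, and PC-3p-203140_6 held the whole of ssa-miR-30a-4-3p_1ss12GA with 1 base more.

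Libraries held 2038299 to 7234219 counts in hypoxia and 5572734 to 8497215 in normoxia. The lowest total was that of hypoxia replicate 1, which also differed most from the rest: its log2 abundances correlated across entries at Pearson r of 0.948 to 0.970 with the other libraries, which correlated with each other at 0.9765 to 0.991. Abundance is given as CPM, the usual scaling of counts to a common library size, with TMM factors applied to the totals. Each read is a whole miRNA, so levels need no correction for length, but preferences of adapter ligation were not measured. Hepatocyte miRNAs (miR-122, miR-192 and miR-194) summed to 238952 to 288063 CPM in hypoxia and 278889 to 290079 CPM in normoxia. They served as the marker list for the labelled tissue. Most of the sum was miR-122, whose tested entries had a mean of 238351 CPM in hypoxia and 256089 CPM in normoxia.

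miR-30 was among the major families of these vesicles in both conditions, and its total did not separate the groups. It took 3.51%, 3.43% and 3.44% of counts in hypoxia replicates 1, 2 and 3, and 3.39%, 3.61% and 3.24% in the normoxia libraries in the same order. The group means were 3.46 ± 0.042% in hypoxia and 3.41 ± 0.187% in normoxia (SD, n = 3 each), and the ranges overlapped. In CPM, with the TMM factors applied, the order of the means was reversed. The family then summed to 34050.3 ± 806.4 CPM in hypoxia and 34682.9 ± 2136.5 CPM in normoxia, again with overlap. The level depended on the summing of listings: at values as listed, with each sequence taken once, the means were 2.24% in hypoxia and 2.22% in normoxia. Behind these shares stood 71456 to 247822 family counts in hypoxia and 180429 to 288141 in normoxia, so the 95% Wilson interval of a library's share was at most 0.0252 percentage points to either side, which covers counting error only. By summed CPM, with listings summed, the family ranked 7 among 157 families numbered as miR. Its rank at values as listed is not given here. In bulk vesicle RNA, fewer vesicles from a cell type and fewer molecules per vesicle cannot be told apart.

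The family's counts came from few sequences. The 5 most abundant entries held 97.7% to 97.9% of them in hypoxia and 97.9% to 98.2% in normoxia. These were dre-miR-30c-5p_R+1, dre-miR-30e-5p_R+2, dre-miR-30e-3p, dre-miR-30b and ccr-miR-30d, called miR-30c-5p, miR-30e-5p, miR-30e-3p, miR-30b and miR-30d from here on. They kept this order in all 6 libraries. Within each group the ranges of neighbours in this order did not overlap, and the narrowest gap was in normoxia, where miR-30e-5p came down to 7045 CPM and miR-30e-3p reached 6773 CPM. Of the other 12 entries, 3 averaged 100 to 1000 CPM and 9 less than 100 CPM.

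None of the 16 tested members passed the test of hypoxia against normoxia (edgeR quasi-likelihood F test, Benjamini-Hochberg adjusted over all 519 entries tested, threshold 0.05), where 2.7% of all entries did, 1.54% higher and 1.16% lower in hypoxia. Their adjusted p-values ran from 0.174 to 0.992. One member, miR-30b, had an unadjusted edgeR p under 0.05 (1 of 16), against 18.5% of all entries. DESeq2 passed 0 members, where it passed 8.23% of the entries to which it gave an adjusted p, and 1 member had an unadjusted p under 0.05, beside 19.5% of all entries. limma-voom passed 0 members beside 4.24% of all entries, and 2 members had an unadjusted p under 0.05, beside 18.9%. The log2 fold change was above 0 in 9 members and below 0 in 7, with a median of 0.04 beside -0.04 over all entries. In 4 members the libraries of the groups did not overlap, 2 higher and 2 lower in hypoxia, which is 4 of 16 beside 26% of all entries (11.8% higher and 14.3% lower).

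**Figure D1:**
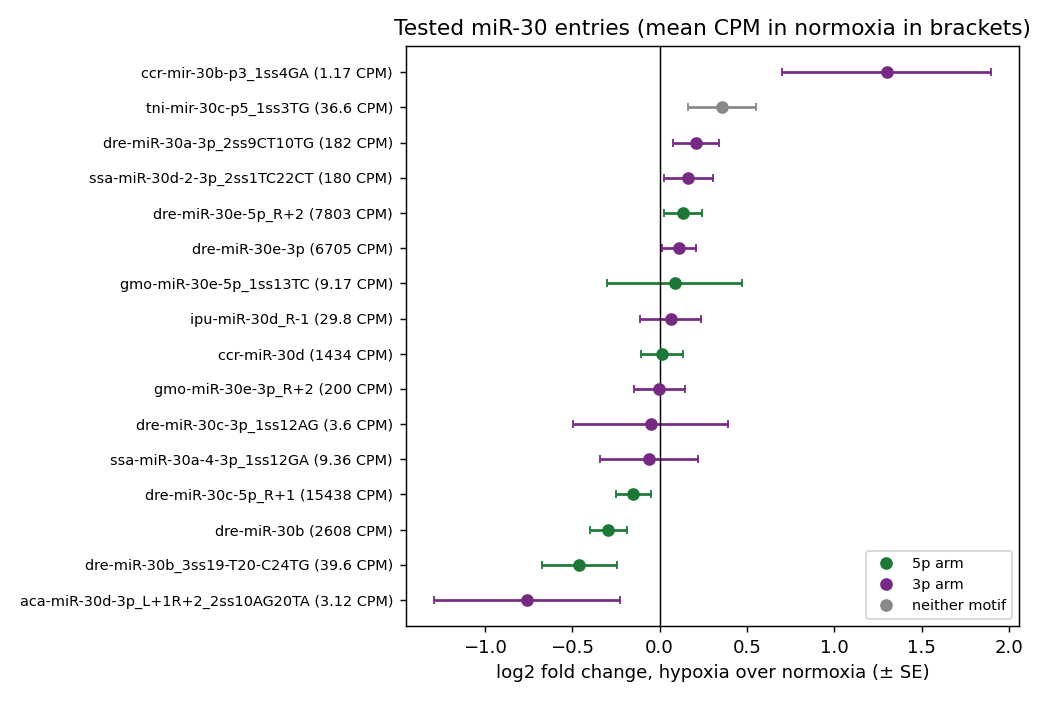
Log2 fold change of hypoxia over normoxia (x axis, ± SE, n = 3 libraries each) for the 16 tested miR-30 entries, coloured by strand, with the mean CPM in normoxia beside each name. The abundant entries lie close to 0, with miR-30b at -0.29 and miR-30e-5p at 0.14, and the widest error bars belong to entries of a few CPM.

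Of the 5 abundant members, miR-30b, a 5p strand of the b/c type, had the largest fitted difference, towards lower values in hypoxia. It measured 2070, 2196 and 2119 CPM in hypoxia replicates 1, 2 and 3, against 2411, 2687 and 2727 CPM in normoxia replicates 1, 2 and 3. Every hypoxia library lay below every normoxia library. The log2 fold change was -0.29 ± 0.11 (SE), a fold of 0.816, with an unadjusted edgeR p of 0.0205 and a Benjamini-Hochberg adjusted p of 0.174. Over the alternatives its adjusted p lay between 0.0519 with DESeq2 and 0.510 with offsets for GC content and length and a replicate block. Without hypoxia replicate 1 the log2 fold change was -0.22.

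The most abundant member, miR-30c-5p, had 13482, 14282 and 13991 CPM in hypoxia replicates 1, 2 and 3, against 15320, 16837 and 14159 CPM in normoxia replicates 1, 2 and 3. The groups overlapped by a narrow margin, since normoxia replicate 3 lay just under hypoxia replicate 2. Its log2 fold change of -0.15 ± 0.10 missed the threshold (edgeR, Benjamini-Hochberg adjusted p = 0.452). This direction depended on the setting, since the value was 0.02 once offsets for GC content and length were used. The trend on GC content itself differed between libraries, at 0.110, -0.063 and 0.112 log2 units per 10 points of GC in hypoxia replicates 1, 2 and 3, against -0.010, -0.079 and -0.070 in the normoxia libraries in the same order. The trend on length, fitted together with it, differed too. It was -0.0047, -0.0663 and -0.0301 log2 units per nt in hypoxia, against 0.0795, 0.0426 and -0.0208 in normoxia, in replicate order.

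Its form with 1 more base, dre-miR-30b_3ss19-T20-C24TG, was far rarer. It had 24.3, 36.8 and 24.6 CPM in hypoxia replicates 1, 2 and 3, against 43.8, 39.96 and 35.3 CPM in normoxia replicates 1, 2 and 3. Hypoxia replicate 2 reached into the normoxia range. The log2 fold change was -0.46 ± 0.21 (edgeR, Benjamini-Hochberg adjusted p = 0.293), so that all 3 tested entries of the b/c type had values below 0 and none passed. The fourth, oha-miR-30b-5p_R+1_1ss22TC, was not tested, with 0, 0 and 7 counts in hypoxia replicates 1, 2 and 3, and 10, 6 and 0 in the normoxia libraries. In CPM, 3 counts were worth 0.357 to 1.46 depending on the library.

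**Figure D2:**
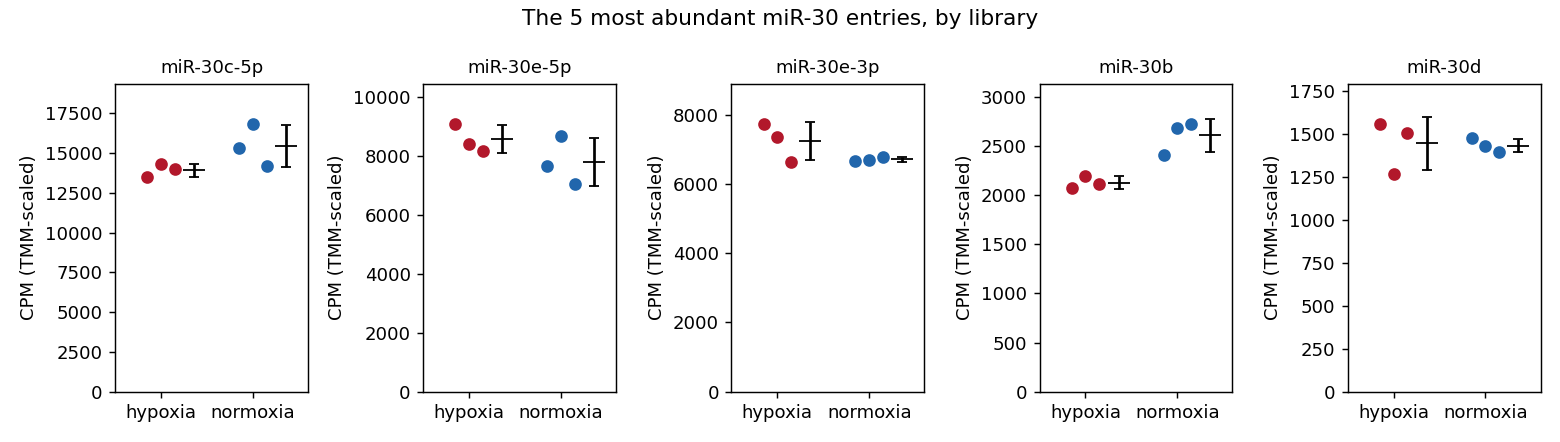
CPM (y axis, from 0, a separate scale per panel) of the 5 most abundant miR-30 entries in hypoxia and normoxia libraries, with points for the 3 libraries of each group in replicate order and black marks for mean ± SD. The miR-30b points are separate, at 2070 to 2196 CPM in hypoxia and 2411 to 2727 CPM in normoxia, while the other panels overlap.

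The 3 entries of the a/d/e type had log2 fold changes of 0.01 to 0.14, and none passed. miR-30e-5p, the second most abundant member, measured 9101, 8423 and 8187 CPM in hypoxia replicates 1, 2 and 3, against 7682, 8681 and 7045 CPM in normoxia replicates 1, 2 and 3. Normoxia replicate 2 lay among the hypoxia libraries. Its log2 fold change was 0.14 ± 0.11 (edgeR, Benjamini-Hochberg adjusted p = 0.533), and 0.39 with offsets for GC content and length, where it did not pass either.

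By name miR-30d is the partner of miR-30b in mammals, but neither entry was mapped to a hairpin here. miR-30d was level. It had 1561, 1269 and 1509 CPM in hypoxia replicates 1, 2 and 3, against 1476, 1430 and 1395 CPM in normoxia replicates 1, 2 and 3. The hypoxia libraries spanned the normoxia ones, and the log2 fold change was 0.01 ± 0.12 (edgeR, Benjamini-Hochberg adjusted p = 0.976). The rare gmo-miR-30e-5p_1ss13TC had 29, 80 and 33 counts in hypoxia replicates 1, 2 and 3, and 100, 50 and 39 in the normoxia libraries, with a log2 fold change of 0.09 ± 0.39.

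Set against each other within a library, where scaling cancels, the types stood in a lower ratio in hypoxia. Counts of the b/c type over those of the a/d/e type were 1.46 in hypoxia replicate 1, 1.70 in replicate 2 and 1.66 in replicate 3, against 1.94, 1.93 and 2.00 in the normoxia replicates 1, 2 and 3. The groups were separate, with means of 1.61 ± 0.131 in hypoxia and 1.96 ± 0.039 in normoxia (SD, n = 3 each). The mean difference of the log2 ratio was -0.29, or 0.819-fold. No test is given for this ratio, which was chosen with the values known. Separation of this kind was common: among all pairs of tested entries that averaged 1000 CPM or more, the ratio separated the groups in 29.2% of 2775 pairs.

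Most counts in this ratio came from its most abundant pair. miR-30c-5p over miR-30e-5p was 1.48, 1.70 and 1.71 in the hypoxia libraries, against 1.99, 1.94 and 2.01 in the normoxia libraries, each in replicate order. The difference of their fitted log2 fold changes was -0.28, and it was -0.22 without hypoxia replicate 1 and -0.37 with offsets for GC content and length, so that it kept its sign where the fold change of miR-30c-5p did not. For miR-30b over miR-30d the ratios were 1.33, 1.73 and 1.40 in hypoxia, against 1.63, 1.88 and 1.96 in normoxia, and the groups overlapped. The fitted log2 fold changes of miR-30b and miR-30d differed by -0.31, about as much as those of the most abundant pair. This difference was -0.23 without hypoxia replicate 1 and -0.25 with offsets for GC content and length. A ratio within the b/c type separated the groups too: miR-30b over miR-30c-5p was 0.154, 0.154 and 0.152 in hypoxia, against 0.157, 0.160 and 0.193 in normoxia, so that separation was not confined to ratios between the types. The margin was narrow, at 0.154 against 0.157, and normoxia replicate 3 stood apart from the rest. How reads were shared between these close sequences is unknown.

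**Figure D3:**
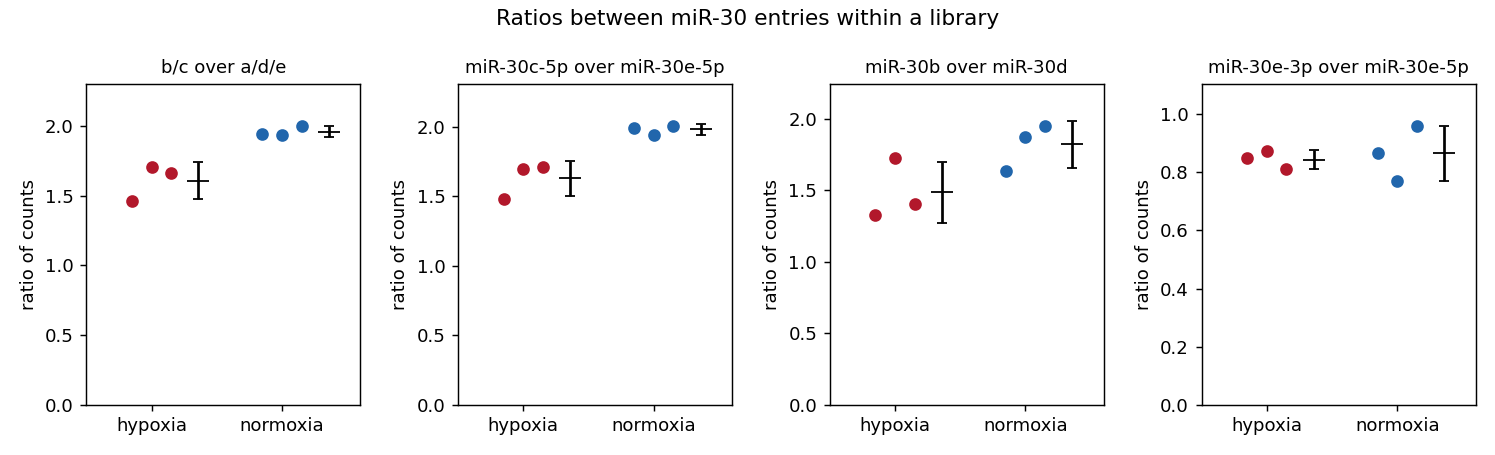
Ratio of counts within each library (y axis, from 0) for the b/c type over the a/d/e type and for 3 pairs of entries, in hypoxia and normoxia libraries, with points in replicate order and black marks for mean ± SD. The groups are separate for the types, at 1.46 to 1.70 in hypoxia and 1.93 to 2.00 in normoxia. They overlap for miR-30b over miR-30d and for miR-30e-3p over miR-30e-5p.

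As shares of the family, miR-30c-5p took 38.8% to 42.2% in hypoxia and 43.2% to 45.5% in normoxia, and miR-30b 5.96% to 6.41% and 7.04% to 8.32% in the same order of groups. miR-30e-5p took 24.6% to 26.2% in hypoxia and 21.5% to 23.5% in normoxia. These 3 shares did not overlap between groups, whereas those of miR-30e-3p and miR-30d did. Such separation was common in the table, at 26% of entries by CPM and 29.2% of the ratios above. Shares within a family move against each other, so they are not separate observations. The levels of these shares also depended on the summing of listings, as did those of the ratios above that include miR-30b. The ratio of miR-30c-5p to miR-30e-5p did not, since both had 2 listings. miR-30b had 1 listing and each of the other abundant members had 2, so the summing lowered miR-30b against them in every library. Their 95% Wilson intervals reached at most 0.357 percentage points to either side.

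**Figure D4:**
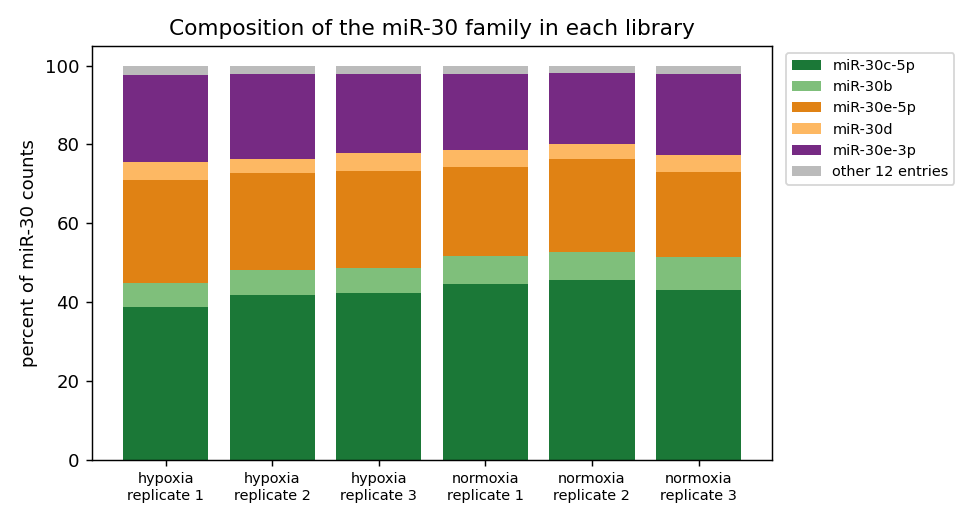
Percent of all miR-30 counts (y axis) taken by each of the 5 most abundant entries and by the other 12 together, stacked for each library, hypoxia on the left and normoxia on the right. The b/c type at the bottom of the bars (miR-30c-5p with miR-30b) is shorter in the hypoxia libraries, and the miR-30e-5p segment is taller.

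Among 3p strands, miR-30e-3p was nearly as abundant as miR-30e-5p, and the other 3p entries were far rarer. No entry was mapped to a hairpin, so the type of a 3p strand could only be read from its sequence. The stretch CAGTC of miR-30e-3p is the reverse complement of gactg, which among the 5p sequences only the a/d/e type holds. In ssa-miR-30a-4-3p_1ss12GA the stretch GAGAG is the reverse complement of ctctc, found in miR-30c-5p of the b/c type. Such pairing was not tested over all 3p entries. miR-30e-3p measured 7734, 7352 and 6634 CPM in hypoxia replicates 1, 2 and 3, against 6653, 6689 and 6773 CPM in normoxia replicates 1, 2 and 3. Hypoxia replicates 1 and 2 lay above normoxia and hypoxia replicate 3 just below it. The log2 fold change was 0.11 ± 0.10 (edgeR, Benjamini-Hochberg adjusted p = 0.588). Its ratio to miR-30e-5p was 0.850, 0.873 and 0.810 in hypoxia, against 0.866, 0.771 and 0.961 in normoxia. The hypoxia ratios lay within the normoxia range. More than 1 hairpin may give this 3p sequence, which was also listed as ssa-miR-30c-3p.

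Around this sequence lay versions with another 3′ end. gmo-miR-30e-3p_R+2, with 1 base more, had a mean of 199.9 ± 23.4 CPM in hypoxia against 199.7 ± 9.66 CPM in normoxia (SD, n = 3 each). ssa-miR-30d-2-3p_2ss1TC22CT, which differs from miR-30e-3p by C22T and has 1 base more, averaged 202.5 ± 18.1 CPM in hypoxia against 180.5 ± 6.43 CPM in normoxia. Its log2 fold change was 0.16 ± 0.14. The longest version, aca-miR-30d-3p_L+1R+2_2ss10AG20TA, had only 2, 14 and 14 counts in hypoxia replicates 1, 2 and 3, against 28, 14 and 20 in the normoxia libraries. Its CPM values were lower in each hypoxia library, with a log2 fold change of -0.76 ± 0.53. None of these passed.

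dre-miR-30a-3p_2ss9CT10TG, with the same seed on another 3p sequence, measured 213.9, 208.0 and 206.7 CPM in hypoxia replicates 1, 2 and 3, against 187.6, 169.4 and 187.7 CPM in normoxia replicates 1, 2 and 3. All hypoxia libraries were above all normoxia libraries. The log2 fold change was 0.21 ± 0.13 (edgeR, Benjamini-Hochberg adjusted p = 0.441). Its shorter form ipu-miR-30d_R-1 lay at 0.06 ± 0.18, with 28.1 to 33.1 CPM in hypoxia and 28.8 to 31.4 CPM in normoxia.

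The 3p strands with seeds of their own stayed at 10.5 CPM or less in every library. ccr-mir-30b-p3_1ss4GA had 8, 21 and 14 counts in hypoxia replicates 1, 2 and 3, and 10, 5 and 8 in the normoxia libraries. At 2.23 to 3.89 CPM in hypoxia and 0.854 to 1.45 CPM in normoxia the groups were separate, and the log2 fold change of 1.30 ± 0.60, which rests on these few counts, missed the threshold (edgeR, Benjamini-Hochberg adjusted p = 0.291). ssa-miR-30a-4-3p_1ss12GA and dre-miR-30c-3p_1ss12AG lay at -0.06 ± 0.28 and -0.05 ± 0.44. Summed, 3p strands made up 24.3%, 23.3% and 21.9% of family counts in hypoxia replicates 1, 2 and 3, against 21.2%, 19.7% and 22.5% in the normoxia libraries in the same order. Here the groups overlapped.

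The entry that does not resemble the family, tni-mir-30c-p5_1ss3TG, had 57.4, 37.2 and 47.5 CPM in hypoxia replicates 1, 2 and 3, against 35.4, 35.5 and 38.9 CPM in normoxia replicates 1, 2 and 3. Only hypoxia replicate 2 fell within the normoxia range. Its log2 fold change was 0.36 ± 0.20 (edgeR, Benjamini-Hochberg adjusted p = 0.357) and changed sign, to -0.30, with offsets for GC content and length.

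Other miRNAs of liver and hypoxia set the scale. Of 50 tested entries of 11 such families (miR-210, miR-122, miR-26, miR-29, miR-101, miR-148, miR-192, miR-194, miR-21, miR-103 and miR-107), 2 rose and 2 fell. Both that rose were the strands of miR-210, the miRNA best known for induction by hypoxia, with a median log2 fold change of 1.29. Both that fell were of miR-26, which had 10 tested entries and a median of -0.43. The median of these families was -0.12, beside 0.04 for miR-30 and -0.04 for all entries. Among tested entries averaging 1000 CPM or more, the median absolute log2 fold change was 0.11 over all 75 and 0.14 over the 5 of miR-30.

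Profiles most like that of the summed miR-30 5p strands were sought among the 70 other tested entries that averaged 1000 CPM or more, by the root mean square difference of log2 CPM over the 6 libraries after centring. The closest were dre-let-7g at 0.052, dre-miR-181a-5p at 0.064 and dre-let-7j at 0.070, where the median entry lay at 0.172. dre-let-7g measured 5797 to 6309 CPM in hypoxia and 6176 to 6798 CPM in normoxia, with a log2 fold change of -0.08 ± 0.10. Like the miR-30 5p sum, these profiles were highest in normoxia replicate 2.

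Markers of other cell types moved between the groups in part. Erythrocyte miRNAs (miR-451, miR-144 and miR-486), of which 2 of 7 tested entries rose, summed to 7203 to 9174 CPM in hypoxia and 4842 to 5917 CPM in normoxia. The endothelial miR-126 summed to 15768 to 17733 CPM in hypoxia and 11829 to 13516 CPM in normoxia, with 0 of 4 entries passing. Leukocyte miRNAs (miR-142, miR-150 and miR-223) lay at 3549 to 3919 CPM in hypoxia and 3449 to 4151 CPM in normoxia, and muscle miRNAs (miR-1, miR-133 and miR-206) at 694 to 933 CPM and 724.5 to 774 CPM in the same order. No marker family lacked an entry. Their part in the miR-30 values was not tested.

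**Figure D5:**
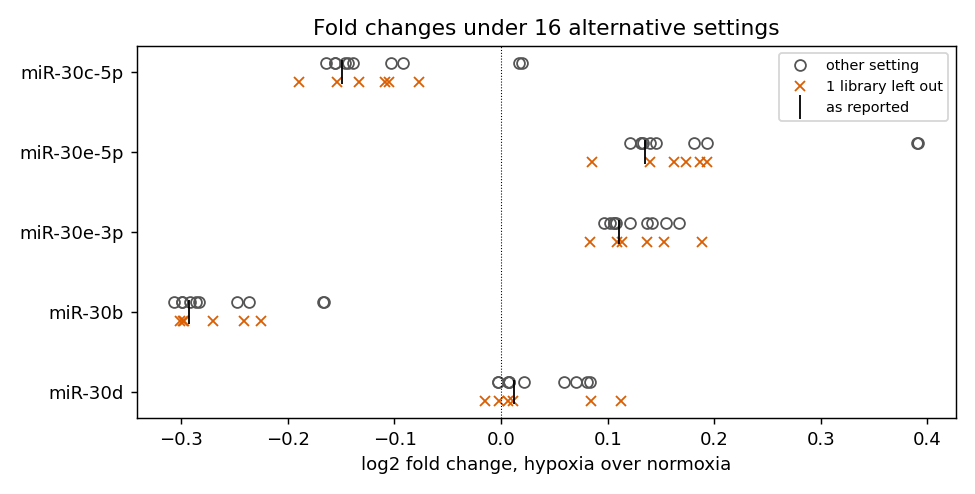
Log2 fold change of hypoxia over normoxia (x axis) for the 5 most abundant miR-30 entries as reported (black bars), with 1 library left out (crosses) and under other settings (circles), 16 alternatives in all. miR-30b stays below 0, at -0.31 to -0.17, miR-30e-5p and miR-30e-3p stay above 0, and miR-30c-5p and miR-30d cross 0.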

How the data were processed

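The authors deposited 1 table of estimated counts, unscaled per the file headers, with a name, a sequence and 1 value per library in 1088 rows. Per the labels' protocols, adapter-ligated RNA was reverse transcribed, amplified, selected on a gel and sequenced, and reads were truncated to single ends. Aligner, miRNA caller, annotation and any molecular identifiers: not given in the sources used here. Listings of 1 sequence carried equal values and were summed. In 18 cases, none of them miR-30, sequences of 1 precursor with identical values were merged into 1 entry. Of the nonzero family values, 75.8% were then within 1e-06 of a whole number. Counts were rounded, filtered with filterByExpr, scaled by TMM and tested with edgeR 4.0.16 (glmQLFit and glmQLFTest, 2 groups, no block) on all entries, with Benjamini-Hochberg adjustment. Standard errors are the absolute log2 fold change over the square root of F. DESeq2 1.42.0 and limma 3.58.1 (voom) served as alternatives. The fit was also run on counts simulated from its own model, with the means and dispersions of these data. Such counts follow the model by design, so they cannot show how well it suits these libraries. All members are accounted for, in values per library where they average at least 1000 CPM. Replicates of a group differed by far more than sampling noise (chi-square of at least 48.8 for each degree of freedom). Members and lists were chosen with earlier results of these data known. No genome of the species was used, so the entries have no coordinates here.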

Additional observations from a re-analysis of the deposited data

How the results depend on the processing

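In every alternative, 0 members passed. Of 256 fits of single members under alternatives, 232 kept direction and side of the threshold and 24 changed sign, all of the latter without passing. Beyond leaving out a library, these were dre-miR-30c-5p_R+1 (0.0169) and tni-mir-30c-p5_1ss3TG (-0.3025) with offsets for GC content and length, and 0.0192 and -0.3065 with the replicate block added. gmo-miR-30e-3p_R+2 stood at 0.0703 and 0.0677 under those settings, at 0.0572 with upper-quartile scaling, at 0.0452 with total counts only and at 0.0051 with values as listed. dre-miR-30c-3p_1ss12AG stood at 0.0065 with upper-quartile scaling, ccr-miR-30d at -0.0025 with limma-voom and -0.0030 without a filter, and gmo-miR-30e-5p_1ss13TC at -0.1527 with limma-voom. The cause was not tested. With 1 library left out, signs changed in dre-miR-30c-3p_1ss12AG (-0.3317 to 0.1494), ssa-miR-30a-4-3p_1ss12GA (-0.1864 to 0.1364), gmo-miR-30e-5p_1ss13TC (-0.1312 to 0.4455), gmo-miR-30e-3p_R+2 (-0.0220 to 0.1063) and ccr-miR-30d (-0.0155 to 0.1127).

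The median log2 fold change of the members was -0.01 with limma-voom and -0.003 without a filter on low counts, and lay at -0.0055 to 0.1177 with 1 library left out, hypoxia minus normoxia for the family's share at -0.0424 to 0.1436 percentage points, that of the 3p share at 1.30 to 2.73 percentage points and that of the b/c to a/d/e ratio at -0.397 to -0.276. Entries passing over the whole table numbered 14, and 5 with total counts only, 41 with DESeq2, 22 with limma-voom, 59 without a filter, 3 with offsets for GC content and length, 4 with these and the replicate block, and 0 (without normoxia replicate 2) to 52 (without hypoxia replicate 2) with 1 library left out. Summing entries that share their first 18 bases, an alternative chosen after seeing the data, gave 8, and the sum of 4 entries around dre-miR-30c-5p_R+1 stood at -0.18 ± 0.09. The replicate block gave 7 calls. Deviations of same-numbered libraries correlated at -0.129, -0.055 and -0.046, no library correlated best with its own number, and the numbers were not taken as pairs. Members below about 10 CPM rest on 100 counts or fewer per library.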
